A study of Mus musculus with 18 samples.

Results

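The 37 genes of the mouse mitochondrial genome were taken as all genes whose symbol starts with mt-. They were 37 of the 54752 genes in the RNA files and comprised 13 protein-coding genes, 2 ribosomal RNA genes and 22 transfer RNA genes. The 13 protein-coding genes were also among the 22523 genes with a footprint count, and the rRNA and tRNA genes were not in the footprint files. On build GRCm38 the mitochondrial genome (chromosome M) is a circle of 16299 bases, and mt-Nd6 and 8 of the tRNA genes lie on its minus strand.

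The study sequenced whole cerebellum of mice aged 3 weeks to ask what the loss of the GTPases GTPBP1 and GTPBP2, which act on stalled ribosomes, does to RNA and to translation. All mice were C57BL/6J (B6J), so the controls too carried this strain's mutation in n-Tr20, a nuclear gene of tRNA-Arg(UCU) expressed in the nervous system. B6J.*Gtpbp1*-/- mice carried a targeted allele in which a PGK-Neo cassette replaces a piece of Gtpbp1, backcrossed to C57BL/6J, and B6J-*Gtpbp2*-/- mice carried nmf205, a chemically (ENU) induced null point mutation of Gtpbp2. Each genotype had 3 RNA libraries and 3 libraries of ribosome-protected fragments (footprints), 18 libraries in all, each from 1 mouse, so that a p-value measures the spread between mice. The sexes were not balanced: by the counts of the Y-linked gene Ddx3y, males gave 1 of 3 RNA and 2 of 3 footprint libraries in B6J, 2 of 3 and 1 of 3 in B6J.*Gtpbp1*-/-, and 0 of 3 and 0 of 3 in B6J-*Gtpbp2*-/-. RNA libraries were made from poly(A)-selected RNA and held 37794598 to 52114400 estimated counts. Footprint libraries held 3630823 to 10442573 counts over coding sequence. The labels place the RNA libraries in batch 1 and the footprint libraries in batch 2, so assay and batch cannot be told apart.

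As background, the mitochondrial genome encodes the core membrane subunits of respiratory complexes I, III and IV and of ATP synthase (complex V), together with the rRNAs and tRNAs that mitochondria use to translate them. Both strands are transcribed from promoters in the control region into long precursors, which are cut mostly at the tRNAs that punctuate the genes, and most mRNAs then receive a short poly(A) tail. Translation takes place on mitochondrial ribosomes, with a genetic code of their own and without the cytoplasmic tRNA pool, while every other subunit and factor is encoded in the nucleus.

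The genotype labels were checked on the mutated genes, with CPM, counts scaled by TMM to a common library size over the 9 libraries of an assay. Gtpbp1 (ENSMUSG00000042535) RNA stood at 71.0, 77.8 and 66.7 CPM in B6J and at 44.0, 41.7 and 43.9 CPM in B6J.*Gtpbp1*-/-. Its footprints stood at 73.6, 117 and 84.8 CPM in B6J and at 32.0, 25.5 and 35.6 CPM in B6J.*Gtpbp1*-/-. Both sets of mutant libraries lay below every B6J library. Gtpbp2 (ENSMUSG00000023952) RNA stood at 85.9, 74.0 and 88.1 CPM in B6J, against 65.5, 75.4 and 72.7 CPM in B6J-*Gtpbp2*-/-, so the groups overlapped. Its footprints stood at 44.7, 36.1 and 38.4 CPM in B6J, against 28.9, 26.4 and 7.54 CPM in B6J-*Gtpbp2*-/-, each below every B6J library. By the edgeR test described below, Gtpbp1 passed in its mutant in RNA (adjusted p = 5.94e-05) and in footprints (adjusted p = 0.00676). Gtpbp2 passed in its mutant in neither (edgeR adjusted p = 0.190 and 0.321), so its check is the weaker.

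Mitochondrial genes took a smaller share of the RNA in both mutants. They made up 5.93%, 5.61% and 6.18% of the counts in the 3 B6J libraries, with a mean of 5.91% ± 0.287 (SD, n = 3). In B6J.*Gtpbp1*-/- they made up 4.42%, 4.99% and 4.56%, with a mean of 4.66% ± 0.297 (SD, n = 3). In B6J-*Gtpbp2*-/- they made up 5.01%, 4.8% and 5.04%, with a mean of 4.95% ± 0.130 (SD, n = 3). Every mutant library lay below every B6J library, and the mutant means were 0.788 and 0.838 of the B6J mean for B6J.*Gtpbp1*-/- and B6J-*Gtpbp2*-/-. The gaps exceed counting error, since the 95% Wilson interval of a library's share reached at most 0.00665 percentage points to either side. In bulk tissue, fewer cells rich in mitochondrial RNA and less mitochondrial RNA per cell cannot be told apart.

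The share of footprints did not separate either mutant from B6J. Mitochondrial genes made up 0.342%, 0.595% and 1.07% of the footprints in B6J, 0.948%, 1.03% and 0.848% in B6J.*Gtpbp1*-/-, and 0.735%, 0.258% and 0.735% in B6J-*Gtpbp2*-/-. The B6J libraries alone spanned nearly the whole range and overlapped each mutant. Every B6J.*Gtpbp1*-/- library lay above every B6J-*Gtpbp2*-/- library. The mutant means were 1.41 and 0.861 of the B6J mean, and leaving out 1 library at a time moved these ratios between 1.13 and 2.01 and between 0.692 and 1.23.

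**Figure D1:**
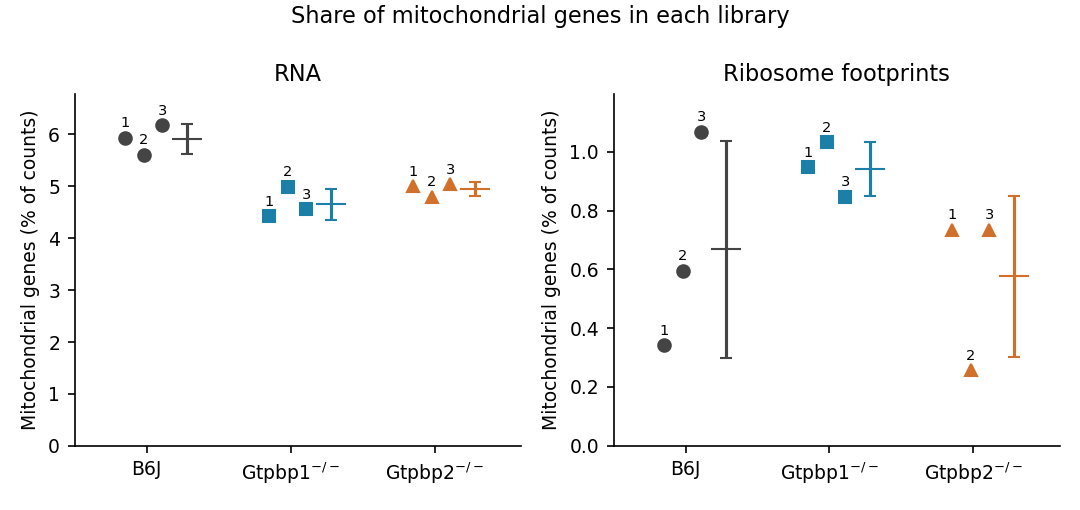
Share of all counts of a library that fell on the mitochondrial genes (vertical axis, percent) in RNA (left) and ribosome footprints (right), by genotype. Each symbol is 1 library with its replicate number, and the bar beside each group is the mean with 1 SD (n = 3). All 6 mutant RNA libraries, at 4.42% to 5.04%, lie below the B6J libraries at 5.61% to 6.18%, while the footprint shares of each mutant overlap those of B6J.

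The lower RNA share came from the mRNAs. The 13 protein-coding genes took 5.51%, 5.13% and 5.57% of the counts in B6J, 3.95%, 4.50% and 4.21% in B6J.*Gtpbp1*-/-, and 4.48%, 4.39% and 4.58% in B6J-*Gtpbp2*-/-, with no overlap between B6J and either mutant. The 2 rRNAs took 0.346% to 0.603% over the 9 libraries, and the 22 tRNAs together 0.00288% to 0.00418%. In TPM, a share of transcripts that takes transcript length into account, the 37 genes took 20.1%, 19.4% and 20.5% of all transcripts in B6J, 14.2%, 17.2% and 16.5% in B6J.*Gtpbp1*-/-, and 17.4%, 16.7% and 16.1% in B6J-*Gtpbp2*-/-. On this scale, too, every mutant library lay below every B6J library.

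Within B6J the mRNA levels fell into 3 tiers. The highest levels per length were those of mt-Co1, mt-Co2 and mt-Co3, the core subunits of cytochrome c oxidase (complex IV), and mt-Atp6, a proton channel subunit of ATP synthase. mt-Co1 stood at 28606 ± 1077 TPM (mean and SD, n = 3), mt-Co2 at 25771 ± 3255 TPM, mt-Atp6 at 23901 ± 1419 TPM and mt-Co3 at 22247 ± 41.2 TPM, and neighbours in that order lay within the sum of their SDs apart from mt-Atp6 and mt-Co3. A middle tier held mt-Cytb, the membrane subunit of complex III, at 12375 ± 298 TPM, mt-Nd1 at 12321 ± 315 TPM and mt-Nd4 at 11599 ± 406 TPM. In the same tier, mt-Nd4l stood at 10208 ± 1367 TPM, mt-Atp8 at 9464 ± 718 TPM, mt-Nd3 at 8779.8 ± 351 TPM and mt-Nd2 at 8654 ± 412 TPM, each within the SDs of its neighbour. The lowest levels were those of mt-Nd6 at 5052 ± 291 TPM and mt-Nd5 at 4630.5 ± 182 TPM, both subunits of complex I. The rRNAs, at 6179 ± 1346 TPM for mt-Rnr1 and 5832 ± 881 TPM for mt-Rnr2, do not give the rRNA content of the tissue, because the libraries were selected for poly(A).

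2 pairs of the mRNA genes share a stretch of bases on the same strand, so a read in that stretch cannot be given to 1 of them. The coding sequences of mt-Atp8 and mt-Atp6 overlap and are carried on a shared mRNA, as are those of mt-Nd4l and mt-Nd4. The stretches are shown, in capitals, since the values of these 4 genes carry that uncertainty. mt-Atp6 and mt-Co3 share 1 base, 8607.
mt-Atp8/mt-Atp6 (chromosome M, 7915 to 7981, plus strand, GRCm38): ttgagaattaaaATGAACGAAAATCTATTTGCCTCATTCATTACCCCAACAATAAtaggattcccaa
mt-Nd4l/mt-Nd4 (chromosome M, 10155 to 10185, plus strand, GRCm38): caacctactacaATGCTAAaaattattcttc

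Mitochondrial mRNAs were lower in B6J.*Gtpbp1*-/- than in B6J for nearly every subunit. Of the 37 genes, 29 passed the count filter, and 12 of these passed an adjusted p of 0.05 (edgeR's quasi-likelihood test, Benjamini-Hochberg over all genes tested), all 12 lower. Over all 24577 genes tested, 13.8% passed and 7.93% passed with a lower level. The 12 were every mRNA but mt-Co2, a gene whose counts are split with a nuclear copy. The median log2 fold change was -0.49 over the mitochondrial genes tested and 0.03 over all genes tested. In each of the 13 mRNAs all 3 B6J.*Gtpbp1*-/- libraries lay below all 3 B6J libraries, as did 15.9% of all genes tested. With the replicate number as a block in the fit, 8 mitochondrial genes passed at a median of -0.48, while the genes passing over all 24577 tested went from 3398 to 2237. In TPM the groups overlapped for mt-Co2 and mt-Nd4l.

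Fewer of the mRNAs passed in B6J-*Gtpbp2*-/-, all again lower than in B6J. Of 31 mitochondrial genes tested 9 passed, against 8.63% of the 24859 genes tested and 5.02% with a lower level. The median log2 fold change was -0.36 over the mitochondrial genes and 0.03 over all genes tested. All 3 mutant libraries lay below all 3 B6J libraries in 12 of the 13 mRNAs, mt-Nd6 being the exception, and in 14.1% of all genes tested. In TPM the groups overlapped for mt-Co1, mt-Nd5 and mt-Nd6. Without B6J RNA replicate 1, 3 genes passed (mt-Nd2, mt-Nd3 and mt-Nd4l), but calls over all genes went down as well, from 2146 to 953 of 24327 tested. The mitochondrial median was then -0.33, and 11 genes had an unadjusted p under 0.05, as with all libraries. The comparisons of the mutants with B6J share the 3 B6J libraries, so their values are given side by side.

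Complex I, which takes electrons from NADH, has 7 mitochondrially encoded subunits, all in its membrane arm. mt-Nd1 (ENSMUSG00000064341) stood at 3943, 3833 and 4056 CPM in B6J, 2623, 2815 and 2559 CPM in B6J.*Gtpbp1*-/-, and 2839, 2776 and 3105 CPM in B6J-*Gtpbp2*-/-. mt-Nd2 (ENSMUSG00000064345) stood at 3094, 3196 and 2940.2 CPM in B6J, 1835, 2175 and 2313 CPM in B6J.*Gtpbp1*-/-, and 1949, 2153 and 2369.8 CPM in B6J-*Gtpbp2*-/-. For both genes the B6J libraries were the 3 highest of the 9. mt-Nd1 had log2 fold changes of -0.57 in B6J.*Gtpbp1*-/- (SE 0.0826, edgeR adjusted p = 0.000526) and -0.44 in B6J-*Gtpbp2*-/- (SE 0.0848, edgeR adjusted p = 0.00910). mt-Nd2 had log2 fold changes of -0.55 (SE 0.0973, edgeR adjusted p = 0.00221) and -0.51 (SE 0.0933, edgeR adjusted p = 0.00677) in the same order.

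The small complex I subunits mt-Nd3 and mt-Nd4l had the largest complex I differences. mt-Nd3 (ENSMUSG00000064360) stood at 583, 581 and 643 CPM in B6J, 341, 377 and 379.6 CPM in B6J.*Gtpbp1*-/-, and 431, 356 and 382 CPM in B6J-*Gtpbp2*-/-. mt-Nd4l (ENSMUSG00000065947) stood at 555, 554 and 449.8 CPM in B6J, 265, 296 and 349 CPM in B6J.*Gtpbp1*-/-, and 360.1, 356 and 318 CPM in B6J-*Gtpbp2*-/-. Neither gene's groups overlapped, although B6J replicate 3 lay nearer to the mutants for mt-Nd4l. mt-Nd3 had log2 fold changes of -0.72 (SE 0.0858, edgeR adjusted p = 0.000104) in B6J.*Gtpbp1*-/- and -0.63 (SE 0.0948, edgeR adjusted p = 0.00216) in B6J-*Gtpbp2*-/-. mt-Nd4l had log2 fold changes of -0.78 (SE 0.114, edgeR adjusted p = 0.000551) and -0.59 (SE 0.102, edgeR adjusted p = 0.00491). Both genes have near-identical copies in the nuclear genome.

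mt-Nd4 and mt-Nd5 are proton-pumping subunits of the same complex. mt-Nd4 (ENSMUSG00000064363) stood at 5909, 6085 and 5674 CPM in B6J, 3897, 4277 and 4447 CPM in B6J.*Gtpbp1*-/-, and 4172, 4453 and 4633 CPM in B6J-*Gtpbp2*-/-. mt-Nd5 (ENSMUSG00000064367) stood at 3417, 3528 and 3247 CPM in B6J, 2604, 2528 and 2802 CPM in B6J.*Gtpbp1*-/-, and 3091, 2735 and 3149 CPM in B6J-*Gtpbp2*-/-. B6J libraries were the highest for both, but for mt-Nd5 the nearest B6J-*Gtpbp2*-/- library was close to B6J replicate 3. mt-Nd4 had log2 fold changes of -0.49 (SE 0.0847, edgeR adjusted p = 0.00193) in B6J.*Gtpbp1*-/- and -0.41 (SE 0.0835, edgeR adjusted p = 0.0115) in B6J-*Gtpbp2*-/-. mt-Nd5 had a log2 fold change of -0.36 in B6J.*Gtpbp1*-/- (SE 0.0836, edgeR adjusted p = 0.0113), lost without B6J replicate 1, without B6J.*Gtpbp1*-/- replicate 2 or with the replicate number as a block, and of -0.18 in B6J-*Gtpbp2*-/- (SE 0.0881, edgeR adjusted p = 0.249), which did not pass.

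mt-Nd6 (ENSMUSG00000064368) is the sole mRNA encoded on the minus strand, and its end overlaps that of mt-Nd5 on the opposite strand. It stood at 716, 734 and 811 CPM in B6J, 557, 544 and 539 CPM in B6J.*Gtpbp1*-/-, and 722, 619 and 601 CPM in B6J-*Gtpbp2*-/-. The B6J.*Gtpbp1*-/- libraries were the 3 lowest, while B6J-*Gtpbp2*-/- replicate 1 lay among the B6J libraries. The log2 fold change was -0.46 in B6J.*Gtpbp1*-/- (SE 0.0833, edgeR adjusted p = 0.00232) and -0.22 in B6J-*Gtpbp2*-/- (SE 0.0975, edgeR adjusted p = 0.211). The library kit did not keep the strand, so reads from the other strand would count too.

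mt-Cytb (ENSMUSG00000064370), cytochrome b of complex III, stood at 5641, 5492 and 5485 CPM in B6J, 3829, 4113 and 3961 CPM in B6J.*Gtpbp1*-/-, and 4145, 4166 and 4605 CPM in B6J-*Gtpbp2*-/-. The 3 B6J values lay close together and well above the 6 mutant values. The log2 fold change was -0.48 in B6J.*Gtpbp1*-/- (SE 0.0796, edgeR adjusted p = 0.00132) and -0.36 in B6J-*Gtpbp2*-/- (SE 0.0835, edgeR adjusted p = 0.0209). The second call was lost without B6J-*Gtpbp2*-/- replicate 2 (-0.34) or B6J replicate 1 or 2 (-0.35 and -0.37), and with sex as a covariate.

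Of the complex IV subunits, which pass electrons to oxygen, mt-Co1 and mt-Co3 fell in both mutants. mt-Co1 (ENSMUSG00000064351), which holds the catalytic site, stood at 18736, 17568 and 18451 CPM in B6J, 13679.8, 14155 and 13138 CPM in B6J.*Gtpbp1*-/-, and 14180.1, 13499 and 16114 CPM in B6J-*Gtpbp2*-/-. mt-Co3 (ENSMUSG00000064358) stood at 5491, 5446 and 5515 CPM in B6J, 4139.7, 4337 and 4159 CPM in B6J.*Gtpbp1*-/-, and 4448, 4201 and 4392 CPM in B6J-*Gtpbp2*-/-. Mutant and B6J libraries did not overlap for either gene. mt-Co1 had log2 fold changes of -0.42 (SE 0.0790, edgeR adjusted p = 0.00320) in B6J.*Gtpbp1*-/- and -0.32 (SE 0.0905, edgeR adjusted p = 0.0493) in B6J-*Gtpbp2*-/-, the second just inside the threshold. mt-Co3 had log2 fold changes of -0.38 (SE 0.0784, edgeR adjusted p = 0.00560) and -0.34 (SE 0.0797, edgeR adjusted p = 0.0247). Both calls in B6J-*Gtpbp2*-/- were fragile. That of mt-Co1 was kept without B6J-*Gtpbp2*-/- replicate 3 (-0.40) and lost without any other of the 6 libraries (-0.27 to -0.35), with upper-quartile scaling, without the count filter, with the offset for effective length and with sex as a covariate. That of mt-Co3 was lost without B6J-*Gtpbp2*-/- replicate 2 or 3 (-0.31 and -0.34), without B6J replicate 1 or 2 (-0.33 and -0.34) and with sex as a covariate. In B6J.*Gtpbp1*-/- both calls were lost with the replicate number as a block.

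The mitochondrial subunits of ATP synthase are mt-Atp6 and mt-Atp8. mt-Atp6 (ENSMUSG00000064357) stood at 4361, 4073 and 4549 CPM in B6J, 3298, 3421 and 3288 CPM in B6J.*Gtpbp1*-/-, and 3520.5, 3429 and 3816 CPM in B6J-*Gtpbp2*-/-. mt-Atp8 (ENSMUSG00000064356), a short subunit, stood at 245, 228 and 265 CPM in B6J, 113, 164 and 139 CPM in B6J.*Gtpbp1*-/-, and 193, 195 and 185 CPM in B6J-*Gtpbp2*-/-. For mt-Atp8 the 3 genotypes formed 3 separate groups, B6J.*Gtpbp1*-/- lowest. Its log2 fold change was -0.83 in B6J.*Gtpbp1*-/- (SE 0.122, edgeR adjusted p = 0.000946) and -0.37 in B6J-*Gtpbp2*-/- (SE 0.0819, edgeR adjusted p = 0.0184), the second lost without B6J-*Gtpbp2*-/- replicate 3 (-0.34) or B6J replicate 1 (-0.37). mt-Atp6 had a log2 fold change of -0.38 in B6J.*Gtpbp1*-/- (SE 0.0833, edgeR adjusted p = 0.00879), lost with the replicate number as a block, and of -0.27 in B6J-*Gtpbp2*-/- (SE 0.0878, edgeR adjusted p = 0.0832), which did not pass.

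mt-Co2 (ENSMUSG00000064354), the complex IV subunit that receives electrons from cytochrome c, was the mRNA with the largest counts on a nuclear copy. It stood at 5018, 4419.9 and 5622 CPM in B6J, 1053, 3812 and 3478 CPM in B6J.*Gtpbp1*-/-, and 3929.8, 3861 and 850.4 CPM in B6J-*Gtpbp2*-/-. B6J.*Gtpbp1*-/- replicate 1 and B6J-*Gtpbp2*-/- replicate 3 were far below the rest. The log2 fold changes of -0.85 (SE 0.547, edgeR adjusted p = 0.439) and -0.80 (SE 0.645, edgeR adjusted p = 0.574) did not pass. Without B6J.*Gtpbp1*-/- replicate 1 the gene passed in that mutant, at -0.46. In the same 2 libraries the nuclear pseudogene Gm28661 held 109424 and 175696 estimated counts, against 19037 in B6J replicate 2 and 0 to 233 in the other 6 libraries. Gm28661 lies on chromosome 1 (24614885 to 24615565, minus strand) and matches mt-Co2 at 100% of 681 bases, so no read within those bases can be assigned to either. With the counts of Gm28661 and the other nuclear copies added, mt-Co2 stood at 5022, 4832 and 5627 CPM in B6J, 3446, 3813 and 3479 CPM in B6J.*Gtpbp1*-/-, and 3931, 3865 and 4138 CPM in B6J-*Gtpbp2*-/-. The groups then did not overlap, and the log2 fold changes were -0.53 (SE 0.0948, edgeR adjusted p = 0.00227) and -0.38 (SE 0.0905, edgeR adjusted p = 0.0260). With copies added, 13 of the 13 mRNAs passed in B6J.*Gtpbp1*-/- and 10 in B6J-*Gtpbp2*-/-.

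**Figure D2:**
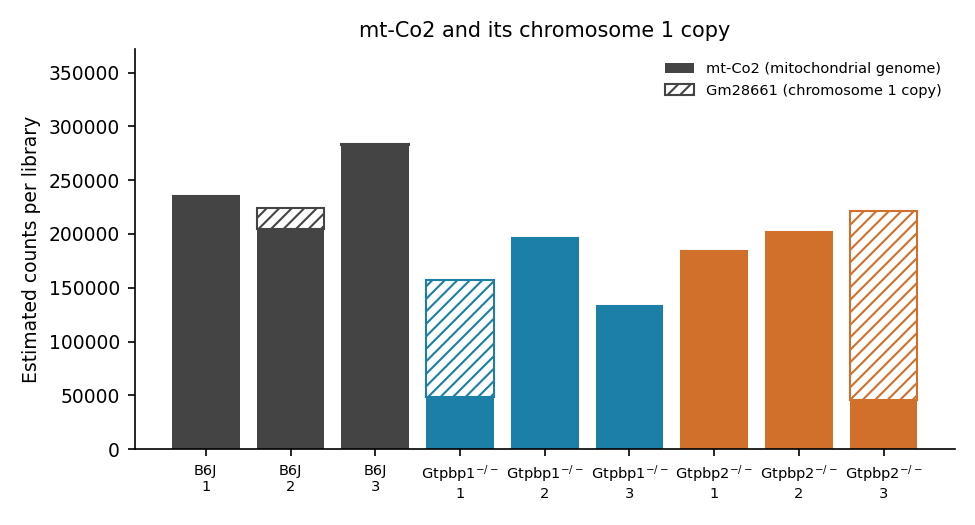
Estimated counts (vertical axis) of mt-Co2 (solid) and of its chromosome 1 copy Gm28661 (hatched, stacked on top) in each RNA library, with the genotype and replicate number below each bar. Gm28661 holds 109424 counts in B6J.*Gtpbp1*-/- replicate 1 and 175696 in B6J-*Gtpbp2*-/- replicate 3, the libraries in which mt-Co2 is lowest.

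The copy is part of a longer insertion of mitochondrial DNA in chromosome 1. Bases 6390 to 11042 of the mitochondrial genome match chromosome 1 from 24611535 to 24616188 (minus strand) over 4654 aligned bases at 99.9% identity, with 2 mismatches and 1 gap. 6 mRNA genes lie wholly within it (mt-Co2, mt-Atp8, mt-Atp6, mt-Co3, mt-Nd3 and mt-Nd4l). 2 more lie partly within it, mt-Co1 with 31.3% of its length and mt-Nd4 with 63.6%. The mismatches, counted on the mitochondrial genome with its own base first, were A6393T in mt-Co1 and T9461C at the start of mt-Nd3, and the gap lay in the tRNA gene mt-Tr. The start of mt-Nd3 and its copy are shown with the T9461C base in capitals, since it is the sole base within mt-Nd3 by which a read of that gene could be told from the copy.
mt-Nd3 start (chromosome M, 9449 to 9488, plus strand, GRCm38): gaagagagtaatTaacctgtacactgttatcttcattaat
copy on chromosome 1 (24613090 to 24613129, minus strand, GRCm38): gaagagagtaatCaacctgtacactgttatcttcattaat

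Of 11 annotated nuclear copies of mitochondrial genes, those of mt-Co1, mt-Co2 and mt-Nd3 on chromosome 1 took over 1000 counts in some library. Gm29216, a copy of 483 bases of mt-Co1, held 7908 to 51400 counts over the 9 libraries. Gm28438, the copy of mt-Nd3, held 1448.5 counts in B6J.*Gtpbp1*-/- replicate 2 and 4272 in B6J-*Gtpbp2*-/- replicate 2, and mt-Nd3 with copies added still fell, by 0.69 and 0.53 on the log2 scale. The genes outside the chromosome 1 insertion fell as well: mt-Nd1, mt-Nd2, mt-Nd5, mt-Nd6 and mt-Cytb all passed in B6J.*Gtpbp1*-/-, and 3 of these 5 (mt-Nd1, mt-Nd2 and mt-Cytb) in B6J-*Gtpbp2*-/-. Of the 6 genes wholly inside, 5 and 4 passed. Outside it, mt-Nd2 and mt-Nd5 have partial copies on chromosomes 2 and 13, which held at most 8.1 and 5.7 counts in any library.

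**Figure D3:**
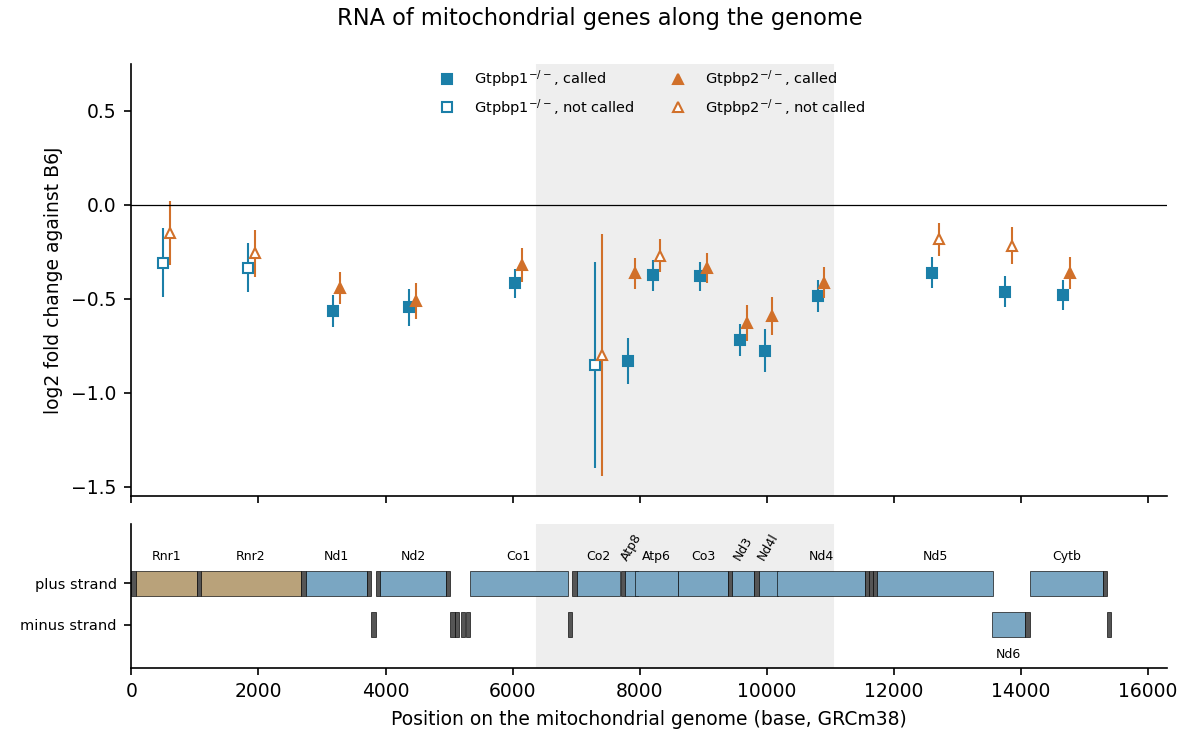
RNA log2 fold change against B6J (vertical axis, error bars 1 SE, 3 against 3 libraries) of the mRNAs and rRNAs at the middle of each gene, along the mitochondrial genome (horizontal axis, base, GRCm38), with squares for Gtpbp1 and triangles for Gtpbp2 mutants, filled where the adjusted p was at most 0.05. The gene map below shows mRNAs in blue, rRNAs in tan and tRNAs in grey, and the shaded span is the one copied on chromosome 1. All values lie below 0, from -0.15 for mt-Rnr1 to -0.85 for mt-Co2, whose bars are the widest.

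Compared with each other, the mutants gave no call. Of 26 mitochondrial genes tested, 0 passed by edgeR, 3 had an unadjusted p under 0.05 (mt-Atp8, mt-Nd6 and mt-Tc) and 0 passed by DESeq2, against 0.0595% of the 25190 genes that edgeR tested and 3.57% at an unadjusted p under 0.05. The 13 mRNAs all had a negative log2 fold change of B6J.*Gtpbp1*-/- over B6J-*Gtpbp2*-/-, from -0.03 for mt-Nd2 to -0.47 for mt-Atp8 (SE 0.116, edgeR adjusted p = 0.874), with a median of -0.11 over the mitochondrial genes and 0.00 over all genes tested. mt-Nd6, which passed against B6J in B6J.*Gtpbp1*-/- alone, differed between the mutants by -0.24 on the log2 scale (SE 0.0932). mt-Nd5 and mt-Atp6, of which the same holds, had -0.18 and -0.11, so a difference between the mutants was not shown for any of the 3. The direction turned under some other settings for mt-Nd2, mt-Co2 and mt-Nd3. For mt-Nd4 and mt-Nd4l it turned with sex as a covariate alone, a fit that rests on 1 B6J.*Gtpbp1*-/- library, replicate 3, as the sole female.

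Within the pool of the 13 mRNAs, the share of a gene also depends on counts assigned to nuclear copies: the loss of mt-Co2 counts raises the shares of the other genes in B6J.*Gtpbp1*-/- replicate 1 and B6J-*Gtpbp2*-/- replicate 3. The shares are therefore given with the copies added. mt-Atp6 made up 7.50%, 7.18% and 7.74% of the pool in B6J, 7.99%, 7.88% and 7.82% in B6J.*Gtpbp1*-/-, and 7.88%, 7.89% and 7.97% in B6J-*Gtpbp2*-/-, narrowly above B6J in all 6 mutant libraries. mt-Co3 made up 9.44%, 9.59% and 9.39% in B6J, 10.015%, 9.98% and 9.89% in B6J.*Gtpbp1*-/-, and 9.96%, 9.66% and 9.16% in B6J-*Gtpbp2*-/-, so it lay above B6J in B6J.*Gtpbp1*-/- and overlapped it in B6J-*Gtpbp2*-/-. mt-Nd1 made up 6.77%, 6.75% and 6.90% in B6J, 6.35%, 6.48% and 6.09% in B6J.*Gtpbp1*-/-, and 6.35%, 6.39% and 6.47% in B6J-*Gtpbp2*-/-, below B6J in all 6. Without the copies added mt-Nd1 overlapped B6J in both mutants, and mt-Co3 lay above B6J in both. mt-Nd3 made up 1.01%, 1.024% and 1.10% in B6J, 0.826%, 0.933% and 0.904% in B6J.*Gtpbp1*-/-, and 0.964%, 1.007% and 0.803% in B6J-*Gtpbp2*-/-, below B6J in all 6 but by a hair in B6J-*Gtpbp2*-/- replicate 2. mt-Atp8 made up 0.421%, 0.402% and 0.452% in B6J and 0.272%, 0.377% and 0.330% in B6J.*Gtpbp1*-/-, without overlap, while B6J-*Gtpbp2*-/-, at 0.432%, 0.449% and 0.386%, overlapped B6J. mt-Nd5 made up 5.87%, 6.22% and 5.53% in B6J, against 6.92%, 6.29% and 6.57% in B6J-*Gtpbp2*-/-, above every B6J library, while B6J.*Gtpbp1*-/-, at 6.30%, 5.82% and 6.67%, overlapped B6J. mt-Nd2 made up 5.32%, 5.63% and 5.01% in B6J and 4.44%, 5.01% and 5.50% in B6J.*Gtpbp1*-/-, which overlapped, and 4.36%, 4.95% and 4.94% in B6J-*Gtpbp2*-/-, below every B6J library. Without the copies added, mt-Nd2 in B6J-*Gtpbp2*-/-, at 4.43%, 5.03% and 5.32%, overlapped B6J, at 5.36%, 5.73% and 5.10%. These shares were not tested.

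The mitochondrial rRNAs overlapped between the mutants and B6J. mt-Rnr1 (ENSMUSG00000064337), of the small ribosomal subunit, stood at 1515, 1744 and 2318 CPM in B6J, 1628, 1694 and 1184 CPM in B6J.*Gtpbp1*-/-, and 1997, 1431 and 1597 CPM in B6J-*Gtpbp2*-/-. mt-Rnr2 (ENSMUSG00000064339), of the large subunit, stood at 2866, 3399 and 3927 CPM in B6J, 2864, 2983 and 2232 CPM in B6J.*Gtpbp1*-/-, and 3154, 2495 and 2874 CPM in B6J-*Gtpbp2*-/-. B6J replicate 3 was the highest library for both genes, and B6J.*Gtpbp1*-/- replicate 3 the lowest. mt-Rnr1 had log2 fold changes of -0.31 (SE 0.183, edgeR adjusted p = 0.347) and -0.15 (SE 0.170, edgeR adjusted p = 0.685), and mt-Rnr2 of -0.34 (SE 0.131, edgeR adjusted p = 0.122) and -0.26 (SE 0.124, edgeR adjusted p = 0.251). None of the 4 passed, and by DESeq2 mt-Rnr2 passed in B6J.*Gtpbp1*-/-. In TPM the mt-Rnr1 mean of B6J-*Gtpbp2*-/-, 6253, was above that of B6J, 6179.

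The tRNA genes gave few counts. Mature tRNAs have no poly(A) tail and are hardly captured by libraries of this kind. In 17 of the 22 genes no library exceeded 35 counts. The tRNA gene with most counts was mt-Tp (ENSMUSG00000064372), for proline, on the minus strand next to the control region, at 772 to 1644 counts with a median of 1297. mt-Ts1 had 110 to 156 counts, mt-Te 69 to 117, mt-Tc 25 to 76 and mt-Tn 15 to 64, and these 5 genes all lie on the minus strand. The library kit did not keep the strand, so RNA from the plus strand across these genes would count too. mt-Ts1 (6870 to 6938) overlaps the end of mt-Co1 (5328 to 6872), which lies on the plus strand. Of the 14, 16 and 11 tRNA genes tested in B6J.*Gtpbp1*-/- against B6J, in B6J-*Gtpbp2*-/- against B6J and between the mutants, 0 passed by edgeR in each, and 2, 0 and 1 had an unadjusted p under 0.05. Of all genes tested, 13.8%, 8.63% and 0.0595% passed, and 26.3%, 22.5% and 3.57% had an unadjusted p under 0.05. By DESeq2, 1 passed in the first comparison, mt-Tp, and 0 in the others. mt-Tp had log2 fold changes of -0.36 in B6J.*Gtpbp1*-/- (SE 0.116, edgeR adjusted p = 0.0597) and -0.15 in B6J-*Gtpbp2*-/- (edgeR adjusted p = 0.606).

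The mitochondrial tRNA for arginine, mt-Tr, differs from the nuclear tRNA-Arg(UCU) affected in this strain and had 0 to 4 counts in any RNA library. Its gene is shown with the anticodon in capitals, since it reads arginine codons that start with CG.
mt-Tr (chromosome M, 9808 to 9875, plus strand, GRCm38): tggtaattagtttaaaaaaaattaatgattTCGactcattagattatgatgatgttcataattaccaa
AGA, the codon read by tRNA-Arg(UCU) in the cytoplasm, does not occur as a sense codon in the mitochondrial reading frames. Among their 3790 sense codons, 0 were AGA and 0 AGG, and 64 were arginine codons that start with CG.

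Ribosome footprints on the mitochondrial mRNAs covered a range of levels much wider than that of the RNA. The paper's protocol names no step aimed at mitochondrial ribosomes, and how well it captures them was not tested. Per kilobase (kb) of coding sequence, mt-Cytb at 1520.0 ± 800.2 and mt-Co1 at 1444 ± 1105 CPM per kb (mean and SD, 3 B6J libraries) were highest. mt-Nd1 followed at 753 ± 473, mt-Nd2 at 592 ± 289.6, mt-Nd6 at 556 ± 178, mt-Nd5 at 433 ± 234, mt-Nd3 at 277 ± 286 and mt-Nd4 at 202 ± 89.98 CPM per kb, and neighbours in this order lay within their SDs. mt-Atp8 at 15.2 ± 8.75, mt-Co3 at 10.9 ± 6.89, mt-Co2 at 10.6 ± 5.96, mt-Atp6 at 7.55 ± 8.11 and mt-Nd4l at 4.41 ± 3.63 CPM per kb were far lower. These 5 all lie wholly within the span copied on chromosome 1, where a footprint would match 2 places. mt-Nd3 also lies wholly within it, and its B6J libraries stood at 211, 591 and 30.1 CPM per kb. The annotated nuclear copies are pseudogenes and footprints were counted over coding sequence, so a copy could have no footprint count of its own. The cause of the low levels was not tested. The handling of footprints with several matches was not stated, so the levels of the 8 genes that overlap the span are uncertain.

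**Figure D4:**
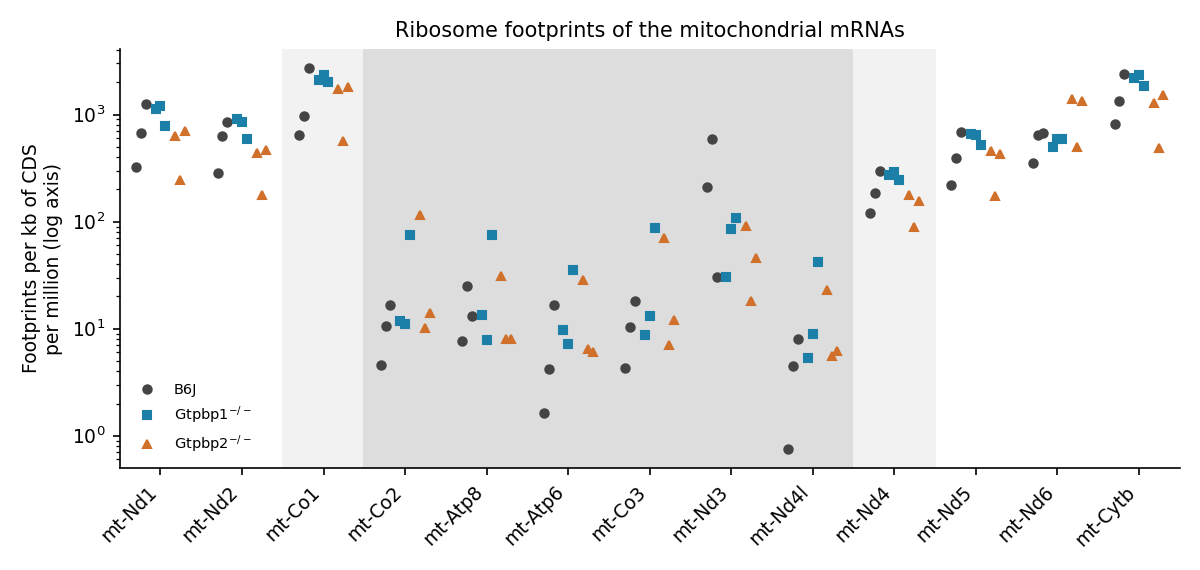
Ribosome footprints on coding sequence (vertical axis, CPM per kb, log scale) for the 13 mitochondrial mRNAs in genome order, with 1 symbol per library and a colour per genotype (3 libraries each). Dark shading marks genes wholly within the span copied on chromosome 1, light shading those partly within it. mt-Atp8, mt-Co3, mt-Co2, mt-Atp6 and mt-Nd4l average 4.41 to 15.2 in B6J, against 277 for mt-Nd3, also wholly within the span, and 202 to 1520.0 for genes partly within it or outside it.

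For genes outside the span other than mt-Nd6, footprints in B6J.*Gtpbp1*-/- lay within or near the upper part of the B6J range. mt-Nd1 footprints stood at 308, 649.6 and 1205 CPM in B6J, 1073, 1140.2 and 748 CPM in B6J.*Gtpbp1*-/-, and 604, 235 and 669.7 CPM in B6J-*Gtpbp2*-/-. mt-Nd2 footprints stood at 297, 654 and 894 CPM in B6J, 947, 883 and 614 CPM in B6J.*Gtpbp1*-/-, and 458, 184 and 483 CPM in B6J-*Gtpbp2*-/-. B6J replicate 1 was low and replicate 3 high for both, and B6J-*Gtpbp2*-/- replicate 2 was the lowest of all 9. mt-Nd5 footprints stood at 405, 716 and 1249 CPM in B6J, 1204, 1175 and 958 CPM in B6J.*Gtpbp1*-/-, and 837, 314 and 789 CPM in B6J-*Gtpbp2*-/-. mt-Cytb footprints stood at 942, 1536 and 2739 CPM in B6J, 2510.3, 2654 and 2125 CPM in B6J.*Gtpbp1*-/-, and 1472, 553 and 1735 CPM in B6J-*Gtpbp2*-/-. For these 2 as well, B6J replicate 1 was the lowest and replicate 3 the highest of the B6J libraries, and B6J-*Gtpbp2*-/- replicate 2 was the lowest of all 9. mt-Nd6 footprints stood at 182, 332 and 351 CPM in B6J, 256, 307 and 309 CPM in B6J.*Gtpbp1*-/-, and 722, 257 and 702 CPM in B6J-*Gtpbp2*-/-. Here 2 of the 3 B6J-*Gtpbp2*-/- libraries were the highest of the 9 and the third lay within the B6J range. Of the footprints on the 13 mRNAs, mt-Nd6 made up 5.38%, 5.64% and 3.17% in B6J, 2.66%, 3.01% and 3.68% in B6J.*Gtpbp1*-/-, and 10.003%, 9.997% and 9.47% in B6J-*Gtpbp2*-/-, where it lay above both other groups. mt-Cytb made up 27.8%, 26.1% and 24.7% in B6J, against 20.4%, 21.5% and 23.4% in B6J-*Gtpbp2*-/-, and mt-Nd2 made up 8.77%, 11.1% and 8.07% against 6.34%, 7.15% and 6.51%, both below every B6J library. The sparse mt-Co2 and mt-Nd4l lay above B6J in B6J-*Gtpbp2*-/-, at 0.130% to 1.084% and 0.0248% to 0.0952% against 0.0926% to 0.123% and 0.00661% to 0.0224%. No gene's share separated B6J.*Gtpbp1*-/- from B6J, and these shares were not tested.

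The genes that overlap the copied span were as variable. mt-Co1 footprints stood at 1002, 1512 and 4181 CPM in B6J, 3229, 3589 and 3112 CPM in B6J.*Gtpbp1*-/-, and 2678, 882 and 2778 CPM in B6J-*Gtpbp2*-/-. mt-Nd4 footprints stood at 165, 258 and 411 CPM in B6J, 379, 399.8 and 338 CPM in B6J.*Gtpbp1*-/-, and 246, 123 and 216 CPM in B6J-*Gtpbp2*-/-. B6J spanned the B6J.*Gtpbp1*-/- values for both genes. mt-Nd3 footprints stood at 73.4, 206 and 10.5 CPM in B6J, 10.7, 29.4 and 37.9 CPM in B6J.*Gtpbp1*-/-, and 31.4, 6.32 and 15.9 CPM in B6J-*Gtpbp2*-/-, with B6J replicates 1 and 2 above all others. For the sparse genes 2 libraries stood out, B6J.*Gtpbp1*-/- replicate 3 and B6J-*Gtpbp2*-/- replicate 1. mt-Co2 footprints stood at 3.13, 7.27 and 11.3 CPM in B6J, 8.07, 7.58 and 51.1 CPM in B6J.*Gtpbp1*-/-, and 78.2, 6.87 and 9.67 CPM in B6J-*Gtpbp2*-/-. mt-Co3 footprints stood at 3.36, 8.15 and 14.1 CPM in B6J, 6.77, 10.2 and 68.3 CPM in B6J.*Gtpbp1*-/-, and 54.8, 5.50 and 9.38 CPM in B6J-*Gtpbp2*-/-. The same 2 libraries were the highest for mt-Atp6, at 24.2 and 19.2 CPM against 1.12 to 11.4 CPM in the other 7. They were also highest for mt-Atp8, at 15.2 and 6.4 CPM against 1.57 to 5.06 CPM, and for mt-Nd4l, at 12.5 and 6.87 CPM against 0.224 to 2.64 CPM.

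By edgeR, 0 of the 13 footprint genes passed in B6J.*Gtpbp1*-/- against B6J, with 1 at an unadjusted p under 0.05 and 0 by DESeq2. Over the 13956 genes tested 0.745% passed, and 12.6% had an unadjusted p under 0.05. 12 of the 13 log2 fold changes were positive, with a median of 0.50 against 0.01 over all genes tested. The largest were those of mt-Nd4l at 1.98 (SE 0.840, edgeR adjusted p = 0.351) and mt-Nd3 at -1.89 (SE 1.17, edgeR adjusted p = 0.598). Without B6J footprint replicate 3, mt-Co1 passed at 1.40, as 1 of 186 among all 13844 genes tested. In B6J-*Gtpbp2*-/- against B6J, edgeR passed 0 of 13, 0 had an unadjusted p under 0.05 and DESeq2 passed 0. Over the 13797 genes tested 2.94% passed, and 17.1% had an unadjusted p under 0.05. The median log2 fold change was -0.09, with 7 negative and 6 positive, against 0.01 over all genes tested. mt-Nd3 stood at -2.40 (SE 1.26, edgeR adjusted p = 0.441), mt-Co2 at 2.1 (SE 1.23, edgeR adjusted p = 0.492) and mt-Nd6 at 0.95 (SE 0.474, edgeR adjusted p = 0.395). Without B6J-*Gtpbp2*-/- footprint replicate 2, mt-Nd6 passed at 1.30, as 1 of 151 among all 13683 genes tested.

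Between the mutants, edgeR passed 0 of the 13 footprint genes, with 6 at an unadjusted p under 0.05, and 0% of all 14142 genes tested, of which 10.8% had an unadjusted p under 0.05. The median log2 fold change of B6J.*Gtpbp1*-/- over B6J-*Gtpbp2*-/- was 0.65, with 11 of 13 positive, against 0.00 over all genes tested. Of the positive values, those of mt-Atp8, mt-Atp6, mt-Co3 and mt-Nd4l turned negative in some fits with 1 library left out. mt-Nd4 stood at 0.93 (SE 0.232, edgeR adjusted p = 0.244) and mt-Nd2 at 1.12 (SE 0.325, edgeR adjusted p = 0.303), and DESeq2 passed these 2. mt-Nd1 stood at 0.97 (SE 0.345), mt-Cytb at 0.95 (SE 0.346) and mt-Nd5 at 0.78 (SE 0.305), with edgeR adjusted p-values of 0.391, 0.392 and 0.411. mt-Nd6 went the other way, at -0.95 (SE 0.326, edgeR adjusted p = 0.373).

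Translational efficiency, the change in footprints beyond that in RNA, was tested as an interaction over 12 libraries, and since RNA and footprints lie in different batches it cannot be told apart from a batch difference that varies with genotype. In B6J.*Gtpbp1*-/- against B6J edgeR passed 0 of the 13 genes (5 at an unadjusted p under 0.05, 0 by DESeq2) and 0% of all 13086 genes, of which 8.94% had an unadjusted p under 0.05. The median was 0.99 against 0.03 over all genes tested, and mt-Nd4 stood at 0.91 (SE 0.326, edgeR adjusted p = 0.484). Without B6J footprint replicate 3, the library with the highest mitochondrial share of footprints, 5 of the 13 genes passed (mt-Co1, mt-Cytb, mt-Nd1, mt-Nd4 and mt-Nd5). Over all 13086 genes tested, 167 then passed. In B6J-*Gtpbp2*-/- against B6J edgeR passed 0 (2 at an unadjusted p under 0.05, 0 by DESeq2), against 0.00773% of all genes tested, and 12% at an unadjusted p under 0.05. The median was 0.24 against 0.03, and mt-Nd6 stood at 1.17 (SE 0.480, edgeR adjusted p = 0.374). Between the mutants edgeR passed 0 (5 at an unadjusted p under 0.05, 1 by DESeq2, mt-Nd4) and 0% of all genes, of which 11.2% had an unadjusted p under 0.05. The median was 0.80 against 0.01, and mt-Nd4 stood at 1.00 (SE 0.275, edgeR adjusted p = 0.284).

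The nuclear genes that copy and transcribe the mitochondrial genome showed no call in RNA. Of 18 tested, edgeR and DESeq2 passed 0 in either mutant against B6J, with 0 and 1 at an unadjusted p under 0.05 (26.3% and 22.5% of all genes tested), and medians of 0.09 in B6J.*Gtpbp1*-/- and -0.01 in B6J-*Gtpbp2*-/- against 0.03 over all genes tested. Tfam, which packages mitochondrial DNA and starts its transcription, stood at 38, 40.2 and 45.4 CPM in B6J, 44.3, 43.6 and 45.9 CPM in B6J.*Gtpbp1*-/-, and 41.5, 45.5 and 46.1 CPM in B6J-*Gtpbp2*-/-. Polrmt, the mitochondrial RNA polymerase, stood at 34.2, 36.4 and 29.2 CPM in B6J, 33.7, 32.4 and 32.3 CPM in B6J.*Gtpbp1*-/-, and 34.1, 33.8 and 33.0 CPM in B6J-*Gtpbp2*-/-. Polg, the catalytic subunit of the mitochondrial DNA polymerase, stood at 64.8, 60.7 and 55.3 CPM in B6J, 64.4, 62.9 and 63.4 CPM in B6J.*Gtpbp1*-/-, and 59.4, 60.7 and 58.8 CPM in B6J-*Gtpbp2*-/-. Each mutant overlapped B6J for all 3, and Tfam had log2 fold changes of 0.11 in each mutant (edgeR adjusted p = 0.485 and 0.580).

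Of 22 genes for mitochondrial RNA processing and stability, 1 rose in each mutant (5.9% and 3.61% of all genes tested rose), Pde12, which removes poly(A) from mitochondrial mRNAs. Pde12 stood at 24.6, 27 and 22.4 CPM in B6J, 35.4, 36.7 and 41.6 CPM in B6J.*Gtpbp1*-/-, and 32.7, 39.6 and 36.2 CPM in B6J-*Gtpbp2*-/-. All mutant libraries lay above B6J, and Pde12 rose by 0.62 (SE 0.103, edgeR adjusted p = 0.00139) and 0.55 (SE 0.109, edgeR adjusted p = 0.0105) on the log2 scale. The list's medians were -0.02 and 0.00. By DESeq2 1 and 4 of the 22 passed, and 6 in each mutant had an unadjusted edgeR p under 0.05 (26.3% and 22.5% of all genes tested). Lrpprc and Slirp, which together stabilise the mRNAs, did not pass: Lrpprc stood at 87.6, 80.6 and 65.2 CPM in B6J, 84.1, 87.5 and 89.4 CPM in B6J.*Gtpbp1*-/-, and 75.8, 79.6 and 88.1 CPM in B6J-*Gtpbp2*-/-. Slirp stood at 14.8, 14.6 and 13.7 CPM in B6J, 11.4, 13 and 13.1 CPM in B6J.*Gtpbp1*-/-, and 10.7, 12.9 and 11.5 CPM in B6J-*Gtpbp2*-/-. Slirp thus lay below B6J in all 6 mutant libraries, with log2 fold changes of -0.20 and -0.30 (edgeR adjusted p = 0.336 and 0.208), the first of which turned positive with an offset for effective length. Mtpap, the mitochondrial poly(A) polymerase, stood at 31.1, 35.9 and 37 CPM in B6J, 37.5, 36.8 and 36.5 CPM in B6J.*Gtpbp1*-/-, and 32.1, 32.7 and 37.6 CPM in B6J-*Gtpbp2*-/-, without a call.

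Of 14 mitochondrial translation factors, 1 fell in each mutant, Tufm, the mitochondrial elongation factor Tu, which delivers tRNAs to the ribosome. Of all genes tested 7.93% and 5.02% fell, so 1 of 14 is about what any list of this size would give. Tufm stood at 54.1, 62.9 and 58.8 CPM in B6J, 41.9, 49.3 and 46.9 CPM in B6J.*Gtpbp1*-/-, and 39.96, 46.7 and 47.2 CPM in B6J-*Gtpbp2*-/-, with no overlap. Its log2 fold changes were -0.35 (SE 0.0898, edgeR adjusted p = 0.0202) and -0.39 (SE 0.0945, edgeR adjusted p = 0.0261), and the list's medians were -0.03 and -0.07. Both Tufm calls were lost with the offset for effective length. With 1 library left out the Tufm values ranged from -0.41 to -0.29 and from -0.45 to -0.32. In 2 and 4 of these fits the call was lost.

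Among 10 regulators of mitochondrial biogenesis, 3 rose and 3 fell in B6J.*Gtpbp1*-/-, and 1 rose and 3 fell in B6J-*Gtpbp2*-/-, with medians of 0.20 and 0.10. Of all genes tested, 5.9% rose and 7.93% fell in B6J.*Gtpbp1*-/-, and 3.61% rose and 5.02% fell in B6J-*Gtpbp2*-/-. Ppargc1a, a coactivator of mitochondrial gene programmes, stood at 64.1, 67.8 and 67.5 CPM in B6J, 65.9, 61.5 and 67.9 CPM in B6J.*Gtpbp1*-/-, and 65.8, 61.3 and 64.2 CPM in B6J-*Gtpbp2*-/-, so the groups overlapped. Its relative Ppargc1b stood at 23.3, 26.1 and 25.3 CPM in B6J, 12.7, 14.4 and 18.5 CPM in B6J.*Gtpbp1*-/-, and 12.7, 16.8 and 15.1 CPM in B6J-*Gtpbp2*-/-. Every mutant value of Ppargc1b was below B6J, with log2 fold changes of -0.72 (SE 0.135, edgeR adjusted p = 0.00323) and -0.74 (SE 0.126, edgeR adjusted p = 0.00468). The nuclear receptors Esrra and Esrrg, partners of these coactivators, fell too. Esrra stood at 55.5, 52.3 and 45.3 CPM in B6J, 43.4, 39.0 and 39.8 CPM in B6J.*Gtpbp1*-/-, and 39.4, 39.95 and 33.6 CPM in B6J-*Gtpbp2*-/-, with log2 fold changes of -0.33 and -0.44 (edgeR adjusted p = 0.0359 and 0.0252). Esrrg stood at 119, 137 and 119.8 CPM in B6J, 99, 92.9 and 105 CPM in B6J.*Gtpbp1*-/-, and 102, 96.2 and 90.6 CPM in B6J-*Gtpbp2*-/-, with log2 fold changes of -0.34 and -0.38 (edgeR adjusted p = 0.0134 and 0.0183). With 1 library left out, the Esrra calls were lost in 4 and 3 fits and the Esrrg calls in 2 and 4. The values then ranged from -0.51 to -0.26 for Esrra and from -0.42 to -0.27 for Esrrg. Both Esrra calls were also lost with the offset for effective length.

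Gabpa, the DNA-binding subunit of nuclear respiratory factor GABP, rose in both mutants. It stood at 46.7, 53.7 and 52.8 CPM in B6J, 65.2, 72.2 and 77.3 CPM in B6J.*Gtpbp1*-/-, and 60.5, 68.1 and 68.6 CPM in B6J-*Gtpbp2*-/-, with no overlap. Its log2 fold changes were 0.49 (SE 0.0888, edgeR adjusted p = 0.00255) and 0.36 (SE 0.0889, edgeR adjusted p = 0.0278). Yy1, a transcription factor with targets among nuclear respiratory genes, stood at 95.5, 107 and 78.8 CPM in B6J, 116, 113 and 135 CPM in B6J.*Gtpbp1*-/-, and 106, 123 and 116 CPM in B6J-*Gtpbp2*-/-. The B6J.*Gtpbp1*-/- libraries lay above B6J and those of B6J-*Gtpbp2*-/- overlapped it, with log2 fold changes of 0.37 (SE 0.107, edgeR adjusted p = 0.0372) and 0.29 (SE 0.107, edgeR adjusted p = 0.121) and 0.08 between the mutants. The Yy1 call was lost with the offset for effective length. It was also lost in 5 fits with 1 library left out, over which the value ranged from 0.26 to 0.48. Nrf1, a transcription factor of nuclear respiratory genes, stood at 22.7, 27.1 and 24.7 CPM in B6J, 32.1, 28.5 and 30.7 CPM in B6J.*Gtpbp1*-/-, and 25.9, 28.1 and 25.4 CPM in B6J-*Gtpbp2*-/-. The B6J.*Gtpbp1*-/- libraries were highest, at a log2 fold change of 0.29 (SE 0.101, edgeR adjusted p = 0.0736) that did not pass.

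Of 14 mitochondrial chaperones and proteases, 3 rose and 2 fell in B6J.*Gtpbp1*-/-, and 2 rose and 1 fell in B6J-*Gtpbp2*-/-, with medians of -0.08 and -0.11. Of all genes tested, 5.9% and 3.61% rose and 7.93% and 5.02% fell, so the number that fell in B6J-*Gtpbp2*-/- is near that of any such list. Hspa9, the mitochondrial HSP70, stood at 237, 249 and 248 CPM in B6J, 519.6, 545 and 617 CPM in B6J.*Gtpbp1*-/-, and 358, 563 and 546 CPM in B6J-*Gtpbp2*-/-. Lonp1, a protease of the matrix, stood at 76.8, 76.3 and 80.7 CPM in B6J, 118, 119.5 and 131 CPM in B6J.*Gtpbp1*-/-, and 97.5, 124 and 125 CPM in B6J-*Gtpbp2*-/-. All mutant libraries were above B6J for both, and B6J-*Gtpbp2*-/- replicate 1 was the lowest mutant library. Hspa9 rose by 1.20 (SE 0.0879, edgeR adjusted p = 1.95e-06) and 1.00 (SE 0.150, edgeR adjusted p = 0.00344) on the log2 scale, and Lonp1 by 0.66 (SE 0.0740, edgeR adjusted p = 6.58e-05) and 0.57 (SE 0.0985, edgeR adjusted p = 0.00532). Hspd1, the chaperonin HSP60, stood at 206, 221 and 230.2 CPM in B6J, 185, 224 and 222 CPM in B6J.*Gtpbp1*-/-, and 176, 208 and 218 CPM in B6J-*Gtpbp2*-/-, so the groups overlapped and no call was made. Trap1, a mitochondrial HSP90, stood at 80.7, 70.5 and 71.1 CPM in B6J, 63.1, 59.96 and 54.3 CPM in B6J.*Gtpbp1*-/-, and 55.3, 56.5 and 59.97 CPM in B6J-*Gtpbp2*-/-. It fell in both mutants, with log2 fold changes of -0.33 and -0.37 (edgeR adjusted p = 0.0239 and 0.0194). Afg3l1, a protease subunit of the inner membrane, stood at 50.01, 53.1 and 46.4 CPM in B6J, 37.5, 37.95 and 41.4 CPM in B6J.*Gtpbp1*-/-, and 38.5, 42.6 and 42.9 CPM in B6J-*Gtpbp2*-/-. All mutant libraries of Afg3l1 lay below B6J, and it passed in B6J.*Gtpbp1*-/- alone, at -0.36 (edgeR adjusted p = 0.0149) against -0.27 (edgeR adjusted p = 0.0841), with -0.09 between the mutants.

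Many nuclear-encoded subunits of the respiratory chain and ATP synthase also fell in RNA. Of 78 tested, 49 fell in B6J.*Gtpbp1*-/- and 42 in B6J-*Gtpbp2*-/- (7.93% and 5.02% of all genes tested fell), and 0 rose in either, with 54 and 50 passing by DESeq2. The medians were -0.34 and -0.33 against 0.03 over all genes tested. Cox5a, a matrix-side subunit of complex IV, stood at 84.2, 92.0 and 104 CPM in B6J, 54.9, 58.0 and 52.5 CPM in B6J.*Gtpbp1*-/-, and 63.1, 63.8 and 54.6 CPM in B6J-*Gtpbp2*-/-, with no overlap. Its log2 fold changes were -0.76 (SE 0.0881, edgeR adjusted p = 8.26e-05) and -0.63 (SE 0.0990, edgeR adjusted p = 0.00292). Uqcr11, a small subunit of complex III, stood at 55.7, 49.2 and 53.2 CPM in B6J, 33.0, 29.7 and 30.9 CPM in B6J.*Gtpbp1*-/-, and 37, 34.6 and 30.7 CPM in B6J-*Gtpbp2*-/-, and its log2 fold changes were -0.76 and -0.63 (edgeR adjusted p = 8.94e-05 and 0.00266). Cox6a1, of complex IV, stood at 149.97, 152 and 170.1 CPM in B6J, 104, 104 and 100.2 CPM in B6J.*Gtpbp1*-/-, and 119, 113 and 78.6 CPM in B6J-*Gtpbp2*-/-. It lay below B6J in every mutant library, with log2 fold changes of -0.62 and -0.61 (edgeR adjusted p = 0.000118 and 0.0303).

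The largest fold changes of the list in B6J.*Gtpbp1*-/- were those of Cox8a and Cox5b. Cox8a, a small complex IV subunit, stood at 199, 202 and 206 CPM in B6J, 82.6, 91.7 and 103 CPM in B6J.*Gtpbp1*-/-, and 133, 122 and 66.4 CPM in B6J-*Gtpbp2*-/-. All mutant libraries of Cox8a were below B6J, but it passed in B6J.*Gtpbp1*-/- alone, with log2 fold changes of -1.13 (SE 0.0863, edgeR adjusted p = 2.65e-06) and -0.92 (SE 0.256, edgeR adjusted p = 0.0911), and the mutants differed by -0.21 (SE 0.276), without a call. Cox5b, which binds zinc in the same complex, stood at 98.96, 112 and 106 CPM in B6J, 59.1, 59.2 and 64.6 CPM in B6J.*Gtpbp1*-/-, and 88.4, 79.1 and 50.2 CPM in B6J-*Gtpbp2*-/-. It too passed in B6J.*Gtpbp1*-/- alone, at -0.79 (SE 0.0755, edgeR adjusted p = 1.68e-05) against -0.54 (SE 0.191, edgeR adjusted p = 0.141), and the mutants differed by -0.25 (SE 0.194), without a call. For both genes B6J-*Gtpbp2*-/- replicate 3 was far below the other 2. In footprints edgeR passed 0 of the list in either mutant, with 2 and 18 at an unadjusted p under 0.05 (12.6% and 17.1% of all genes tested), 1 and 2 by DESeq2, and medians of -0.04 and -0.12. For translational efficiency edgeR passed 0 in either mutant, and DESeq2 passed 4 and 3. At an unadjusted p under 0.05 there were 31 and 17 (8.94% and 12% of all genes tested). Of the 78 log2 fold changes 73 and 61 were positive, with medians of 0.30 and 0.22 against 0.03 over all genes tested. Assay and batch cannot be told apart here either.

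ATF4, the transcription factor of the integrated stress response, and its targets rose as a list in both mutants. All 14 genes passed in RNA in each mutant, all higher, with medians of 2.00 and 1.94 (5.9% and 3.61% of all genes tested rose). In footprints 11 and 13 passed, against 0.745% and 2.94% of all genes tested. Atf4 stood at 148, 181 and 189.9 CPM in B6J, 308, 313 and 346 CPM in B6J.*Gtpbp1*-/-, and 277, 336 and 312 CPM in B6J-*Gtpbp2*-/-, without overlap, and rose by 0.90 (SE 0.0985, edgeR adjusted p = 5.20e-05) and 0.83 (SE 0.108, edgeR adjusted p = 0.000914) on the log2 scale. Trib3, a pseudokinase induced by ATF4, stood at 0.384, 0.626 and 0.934 CPM in B6J, 27.3, 24.4 and 20.2 CPM in B6J.*Gtpbp1*-/-, and 18.2, 21.4 and 21.5 CPM in B6J-*Gtpbp2*-/-. Gdf15, a secreted stress signal, stood at 0.405, 0.108 and 0.0199 CPM in B6J, 13.4, 16.9 and 26.3 CPM in B6J.*Gtpbp1*-/-, and 11.8, 26.6 and 14.8 CPM in B6J-*Gtpbp2*-/-. Both were near 0 in B6J and present in every mutant library. Fgf21, a secreted growth factor, stood at 0, 0.151 and 0 CPM in B6J, 1.29, 1.59 and 2.93 CPM in B6J.*Gtpbp1*-/-, and 0.747, 2.53 and 3.26 CPM in B6J-*Gtpbp2*-/-, where its call was lost without mutant replicate 3 (4.99) or without the count filter. Between the mutants, edgeR and DESeq2 passed 0 RNA genes in any of the 7 lists, and 0 had an unadjusted p under 0.05, against 0.0595% and 3.57% of all genes tested.

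Markers of granule and Purkinje cells fell in part, against 7.93% and 5.02% of all genes tested that fell in the 2 mutants. The 5 granule cell markers summed to 4503, 4834 and 4725 CPM in B6J, 2953, 2946 and 3424 CPM in B6J.*Gtpbp1*-/-, and 3153, 3373 and 2935 CPM in B6J-*Gtpbp2*-/-. All 5 fell in B6J.*Gtpbp1*-/- and 4 of 5 in B6J-*Gtpbp2*-/-, with Cbln3 the most abundant. The paper reports apoptotic granule cells at an age later than that of these mice, and the libraries do not measure cell numbers. The 5 Purkinje cell markers, Itpr1 the most abundant, summed to 7674, 8754 and 6409 CPM in B6J, 6261, 5631 and 7331 CPM in B6J.*Gtpbp1*-/-, and 5606, 6469 and 5301 CPM in B6J-*Gtpbp2*-/-, and 1 and 2 of the 5 fell.

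Of all genes tested, 5.9% rose and 7.93% fell in B6J.*Gtpbp1*-/-, and 3.61% rose and 5.02% fell in B6J-*Gtpbp2*-/-. The 4 microglia markers, Csf1r the most abundant, summed to 64.9, 67.4 and 69.6 CPM in B6J, 137, 119.6 and 115 CPM in B6J.*Gtpbp1*-/-, and 123, 118 and 128 CPM in B6J-*Gtpbp2*-/-, and 3 of 4 rose in each mutant. The 3 endothelial markers, Flt1 the most abundant, summed to 96.9, 96.1 and 92.3 CPM in B6J, 120.4, 125 and 131 CPM in B6J.*Gtpbp1*-/-, and 109.8, 142 and 158 CPM in B6J-*Gtpbp2*-/-, and 2 of 3 rose in each. The 4 astrocyte and Bergmann glia markers, Slc1a3 the most abundant, summed to 3203, 3422 and 2875 CPM in B6J, 3026, 2594 and 3072 CPM in B6J.*Gtpbp1*-/-, and 2677, 3028 and 2669 CPM in B6J-*Gtpbp2*-/-, with 1 higher and 1 lower in each mutant. The 4 choroid plexus markers, Ttr the most abundant, summed to 1754, 1156 and 242 CPM in B6J, 1720.2, 1276 and 361 CPM in B6J.*Gtpbp1*-/-, and 54.1, 1064 and 681 CPM in B6J-*Gtpbp2*-/-. The groups overlapped, with means of 1051, 1119 and 600 CPM in the same order. Of the 4, edgeR and DESeq2 passed 0 in either mutant, with 0 at an unadjusted p under 0.05, as held for the 5 markers of skeletal muscle and bone (Col1a2 the most abundant, 80.9 to 139 CPM summed over the 9 libraries). The 3 blood markers, Hbb-bs the most abundant, summed to 918, 512 and 710.4 CPM in B6J, 1126, 968 and 1194 CPM in B6J.*Gtpbp1*-/-, and 224, 998 and 552 CPM in B6J-*Gtpbp2*-/-. Of these 3, 1 rose in B6J.*Gtpbp1*-/- and 0 passed in B6J-*Gtpbp2*-/- by edgeR or DESeq2, with 0 at an unadjusted p under 0.05. No marker was at 0 in all libraries. The part of these cell types in the lower mitochondrial RNA was not tested.

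The marker lists were also tested in footprints, where 0.745% and 2.94% of all genes tested passed against B6J and none between the mutants (0% of 14142). The granule cell markers, Gabra6 the most abundant, summed to 2389, 4018 and 3001 CPM in B6J, 2286, 1600.0 and 2256 CPM in B6J.*Gtpbp1*-/-, and 1502, 1240.02 and 1443 CPM in B6J-*Gtpbp2*-/-. By edgeR 4 of the 5 fell in B6J-*Gtpbp2*-/-, and 0 passed in B6J.*Gtpbp1*-/-, with 4 at an unadjusted p under 0.05 and 0 by DESeq2. The skeletal muscle and bone markers, Col1a1 the most abundant, summed to 273, 664 and 878 CPM in B6J, 1563, 1365 and 2634 CPM in B6J.*Gtpbp1*-/-, and 602, 971 and 473 CPM in B6J-*Gtpbp2*-/-, so every B6J.*Gtpbp1*-/- library lay above the other 6. Of the 5, 3 and 4 of these markers tested in B6J.*Gtpbp1*-/- against B6J, in B6J-*Gtpbp2*-/- against B6J and between the mutants, edgeR passed 0, with 4, 1 and 4 at an unadjusted p under 0.05 and 2, 1 and 3 by DESeq2. Their RNA did not separate in this way, and the tissue they came from was not determined.

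The microglia markers, Csf1r the most abundant, summed to 135, 163 and 129 footprint CPM in B6J, 336, 192 and 378 CPM in B6J.*Gtpbp1*-/-, and 193, 198 and 259.8 CPM in B6J-*Gtpbp2*-/-, and 1 of 4 rose in each mutant. The endothelial markers, Cldn5 the most abundant, summed to 215, 136 and 234 CPM in B6J, 507, 367 and 302 CPM in B6J.*Gtpbp1*-/-, and 433, 348 and 379 CPM in B6J-*Gtpbp2*-/-, and 1 of 3 rose in each. Choroid plexus markers, Ttr the most abundant, varied from 53.5 to 13738 CPM over the 9 libraries, and blood markers, Hbb-bs the most abundant, from 353 to 2535 CPM. Purkinje cell markers, Itpr1 the most abundant, summed to 6412 to 14609 CPM and astrocyte and Bergmann glia markers, Slc1a3 the most abundant, to 2968 to 4485 CPM. Of these 4 lists edgeR passed 0 in either mutant. At an unadjusted p under 0.05 there were 0 and 0 choroid plexus, 1 and 0 blood, 1 and 1 Purkinje cell, and 2 and 1 astrocyte markers, and by DESeq2 0 and 0, 1 and 0, 0 and 1, and 1 and 1. The part of cell types or of other tissue in the footprint comparisons was not tested.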

How the data were processed

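RNA and footprint libraries of 3 genotypes (3 each) were compared. For RNA, the authors pseudo-aligned reads with kallisto 0.42.4, and the deposited files hold estimated counts and TPM per transcript, summed here to genes. For footprints, the authors removed rRNA with Bowtie2 2.2.3, aligned with HISAT2 2.1.0 to mm10 and counted coding sequence with featureCounts; the deposited values are raw counts per gene. How featureCounts treated strand and reads with several matches was not stated.

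The members and lists were chosen with earlier results of these data known. Genes with at least 5 counts in 3 of the 6 libraries of a comparison were tested with edgeR 4.0.16 (TMM, robust quasi-likelihood, R 4.3.3), with Benjamini-Hochberg adjustment over all genes tested and a threshold of 0.05; SE is the log2 fold change over the root of F. Translational efficiency was an assay by genotype interaction on genes with at least 10 counts in 3 of 6 libraries of each assay, Hist genes removed. Shares are ratios of means, with no test. Nuclear copies were found with blastn 2.17.0 (at least 95% identity over 80% of the copy). Gene positions and sequences are of GRCm38, whose annotation matched 54723 of the 54752 genes. Other software was DESeq2 1.42.0, limma 3.58.1, Python 3.11.15, numpy 2.4.6, pandas 2.3.3, scipy 1.17.1 and matplotlib 3.10.9, and the fits were tested on simulated data.

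Alternatives were DESeq2, upper-quartile scaling, scaling on nuclear genes, filterByExpr, no filter, 1 model of all 9 libraries, a replicate block, an offset for effective length, nuclear copies added, sex as a covariate, and leaving out each library.

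Named genes followed a fixed rule: all 37 mitochondrial genes, with values in every library for mRNAs and rRNAs and ranges for tRNAs apart from those passing; Tfam, Polrmt, Polg, Lrpprc, Slirp, Mtpap, Tufm, Ppargc1a, Nrf1, Atf4, Hspd1 and Lonp1; up to 3 passing genes of largest change per list and mutant; and Gtpbp1 and Gtpbp2. Overlapping genes and genes with a copy on chromosome 1 were marked as uncertain. Marker lists covered granule and Purkinje neurons, astrocytes and Bergmann glia, microglia, endothelium, choroid plexus, blood, and muscle and bone. The result of 1 more list is not reported here.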

Additional observations from a re-analysis of the deposited data

How the results depend on the processing

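The share of mitochondrial RNA stayed lower in both mutants under every alternative run (ratios of 0.781 to 0.801 and 0.829 to 0.854, and of 0.760 to 0.808 and 0.817 to 0.858 with 1 library left out). With 3 mice a group a missed threshold does not show equality, and a lone pair of mice left in a group is assumed to vary like the rest. Depth limits the tRNA genes and the sparse footprint genes, and intervals cover counting error alone. Reads that match a nuclear copy cannot be assigned. No scaling moved the median of all genes by over 0.1. Sex as a covariate, with a mouse called male at 100 or more Ddx3y counts, was chosen after seeing the data. Ddx3y differed between same-numbered RNA and footprint libraries in 2 of 9 pairs.

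For B6J.*Gtpbp1*-/- against B6J, 8 to 15 mitochondrial RNA genes passed over the alternatives, 14 by DESeq2, 13 with nuclear copies added and 11 to 13 with 1 library left out (mt-Co2 joined without mutant replicate 1, and mt-Nd5 was lost without mutant replicate 2 or without B6J replicate 1). For B6J-*Gtpbp2*-/- against B6J the alternatives gave 6 to 10, the 6 with sex as a covariate, and leaving out 1 library gave 3 to 8. These were 8, 6 and 7 without mutant replicates 1, 2 and 3, and 3, 6 and 8 without B6J replicates 1, 2 and 3. mt-Nd2, mt-Nd3 and mt-Nd4l passed in each of these 6, while mt-Co1 passed in 1 and mt-Co3 in 2 of them. Between the mutants all gave 0 by edgeR, 0 to 0 with 1 library left out. For footprints, leaving out 1 library gave 0 to 1 (mt-Co1, without B6J replicate 3), 0 to 1 (mt-Nd6, without B6J-*Gtpbp2*-/- replicate 2) and 0 to 0 genes in the 3 comparisons, and DESeq2 gave 2 between the mutants. For translational efficiency it gave 0 to 5 (without B6J footprint replicate 3), 0 to 0 and 0 to 0, and DESeq2 gave 1 between the mutants. Footprint share ratios ranged from 1.13 to 2.01 and from 0.692 to 1.23. The cause was not tested.

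With the replicate number as a block, 8, 9 and 0 RNA genes passed in the 3 comparisons, and 0 in each for footprints and translational efficiency. Same-numbered libraries were not alike across genotypes or assays (correlations of -0.26 to 0.109), so the numbers were not taken as a pairing. In this block, footprints of mt-Atp8 in B6J-*Gtpbp2*-/- turned to -0.10 and RNA of mt-Co2 between the mutants to 0.028. The cause was not tested.

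Other log2 fold changes turned. With upper-quartile scaling in B6J.*Gtpbp1*-/-, Polrmt stood at 0.032 and Ppargc1a at 0.022, and in B6J-*Gtpbp2*-/-, Mtpap at 0.022 and Polg at 0.029. With an offset for effective length, Slirp (0.33) and Ppargc1a (0.023) turned in B6J.*Gtpbp1*-/-, Tfam (-0.013), Polrmt (-0.19), Polg (0.088) and Gtpbp2 (0.32) in B6J-*Gtpbp2*-/-, and mt-Co2 (0.019) and mt-Nd3 (0.026) between the mutants. With sex as a covariate, footprints of mt-Nd6 turned in B6J.*Gtpbp1*-/- (-0.095), those of mt-Atp6 (-0.30) and mt-Nd3 (0.80) in B6J-*Gtpbp2*-/-, and RNA of mt-Nd2 (0.10), mt-Co2 (0.27), mt-Nd4 (0.011) and mt-Nd4l (0.021) between the mutants. All B6J-*Gtpbp2*-/- libraries were female, so beside the turns in B6J-*Gtpbp2*-/- footprints stands 1 female B6J library (replicate 3), and beside those between the mutants 1 female B6J.*Gtpbp1*-/- library (replicate 3). Values resting on 1 library have no spread of their own and settle no direction. The cause was not tested.

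Leaving out 1 library at a time turned values that were not called, with these lowest and highest log2 fold changes. In B6J.*Gtpbp1*-/- RNA they were -0.11 and 0.044 for Polrmt, -0.11 and 0.026 for Hspd1, and -0.063 and 0.0092 for Ppargc1a. In its footprints they were -0.52 and 1.54 for mt-Atp8, -0.023 and 2.29 for mt-Co3, and -0.23 and 0.18 for mt-Nd6, and in its translational efficiency -1.74 and 0.043 for mt-Nd3. In B6J-*Gtpbp2*-/- RNA they were -0.063 and 0.083 for Polrmt, -0.047 and 0.16 for Lrpprc, -0.094 and 0.035 for Mtpap, -0.068 and 0.042 for Polg, and -0.30 and 0.045 for mt-Rnr1. In its footprints they were -0.89 and 0.073 for mt-Nd1, -0.44 and 0.75 for mt-Co1, -0.92 and 0.57 for mt-Atp8, -0.33 and 2.21 for mt-Atp6, -0.20 and 2.02 for mt-Co3, -0.61 and 0.21 for mt-Nd5, and -0.78 and 0.018 for mt-Cytb. In its translational efficiency they were -0.48 and 0.47 for mt-Nd1, -0.58 and 0.13 for mt-Nd2, -0.15 and 1.03 for mt-Co1, -0.58 and 0.87 for mt-Atp8, -0.16 and 2.44 for mt-Atp6, -0.41 and 0.26 for mt-Nd4, -0.46 and 0.34 for mt-Nd5, and -0.47 and 0.34 for mt-Cytb. Between the mutants they were -0.16 and 0.040 for mt-Rnr2, -0.11 and 0.054 for mt-Nd2, and -0.49 and 0.34 for mt-Co2 in RNA. In footprints between the mutants they were -2.03 and 1.38 for mt-Co2, -0.60 and 1.94 for mt-Atp8, -0.69 and 1.46 for mt-Atp6, -1.46 and 1.87 for mt-Co3, and -0.71 and 1.62 for mt-Nd4l. In translational efficiency between the mutants they were -1.99 and 1.42 for mt-Co2, -0.13 and 2.37 for mt-Atp8, -0.60 and 1.57 for mt-Atp6, -1.42 and 1.89 for mt-Co3, and -0.49 and 1.77 for mt-Nd4l. The cause was not tested.

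Calls of some list genes changed when 1 library was left out. In B6J.*Gtpbp1*-/- the RNA call was lost for Trap1 (without mutant replicate 2 or 3, or B6J 1), Esrra (mutant 2 or 3, B6J 1 or 2), Esrrg (mutant 2, B6J 2), Tufm (mutant 1, B6J 2), Yy1 (any library but B6J 2) and Afg3l1 (mutant 1 or 2, B6J 1 or 2). In B6J-*Gtpbp2*-/- it was lost for Trap1 (mutant 2, B6J 1), Gabpa and Esrrg (mutant 2 or 3, B6J 1 or 2), Esrra (mutant 3, B6J 1 or 2), Tufm (mutant 3, any B6J library), Cox6a1 (any B6J library) and Fgf21 (mutant 3), and gained for Cox8a (mutant 3). The offset for effective length ended the calls of Gabpa and Tufm in both mutants, of Esrra in both, and of Yy1, Afg3l1 and Gtpbp1 in B6J.*Gtpbp1*-/-.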
